A study of Mus musculus with 38 samples.

Results

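The mitotic genes of G2/M are 36 genes that cells raise in the G2 phase of the cell cycle and use to divide. The rule is a list of gene symbols and holds no measured value, and all 36 were found among the 29267 genes of each table. They cover the kinases and cyclins of mitotic entry, the chromosomal passenger complex, the spindle checkpoint, the anaphase-promoting complex, centromeres and kinetochores, mitotic kinesins, spindle assembly, cytokinesis and chromosome structure. All 36 passed the filter on low counts in every fit described here, and the lowest expected count of a member in any library was 89 (Ndc80).

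In dividing cells the transcripts of these genes accumulate from late S phase and are cleared as cells enter G1. Cdk1 with a B-type cyclin drives entry into mitosis, the checkpoint kinases hold anaphase until every chromosome is attached, and the anaphase-promoting complex with Cdc20 then starts chromosome separation. Many of their promoters carry CCAAT boxes, bound by the factor NF-Y, and a CHR element, bound by MuvB complexes that repress the genes in quiescence and activate them with B-Myb and FoxM1. Mouse pluripotent cells cycle fast with a short G1.

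The study asked how c-Jun, a subunit of the AP-1 transcription factor, acts in the passage between the naive and the primed pluripotent state. RNA was sequenced in 38 libraries of 18 groups. kEpiSC (n = 2) are mouse epiblast stem cells, the primed state, with a lentiviral Klf4 transgene, in lines obtained by drug selection. They were moved into iCD1 medium and sampled after 1, 2 and 3 days (n = 2 each), a course named PNT for primed to naive, with a parallel series in iCD1 with JNKi, the c-Jun N-terminal kinase inhibitor SP600125 (n = 2, 3 and 2 on days 1, 2 and 3, dose for these libraries not given in the sources used here). kiPSC (n = 2) are the naive cells obtained at the end, ESC (n = 5) are embryonic stem cells and EpiSC (n = 4) are epiblast stem cells without the transgene; ESC replicates 1 and 2 alone carry a strain label, CBA/CaJ X C57BL/6J. JunKO cells carry a c-Jun deletion made with CRISPR/Cas9 in ESC, and both these and wild type (WT) ESC were turned into EpiSC-like cells. They are given as iEpiSC (n = 1 per genotype) and kiEpiSC (n = 1 per genotype), the latter with the k that marks the Klf4 transgene in kEpiSC. Those 2 libraries together are called primed below, and day 3 libraries in iCD1 alone or in iCD1 with JNKi (n = 2 each per genotype) come from kiEpiSC. The labels do not say whether replicates came from separate cultures or clones, so the tests below take in only how far these libraries differ, and that can be technical.

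The libraries held 2.165 to 15.945 M counts (M for mega). Jun ran from 5.01 to 14.6 TPM (a length-scaled share of the transcripts of a library) in the 6 JunKO libraries and from 40.4 to 240.4 TPM in the 6 WT libraries, and no library went against its genotype. Klf4 was at 65.2 and 103 TPM in kEpiSC and 0.520 to 1.94 TPM in EpiSC, while iEpiSC, whose labels name no transgene, had 36.3 TPM in JunKO and 36.6 TPM in WT. In kiEpiSC it was at 40.06 TPM in JunKO and 62.59 TPM in WT. The summed level of 8 naive markers was 1238 to 1907 TPM in kiPSC and 1377 to 2056 TPM in ESC, but 31.8 to 155 TPM in the 13 PNT libraries, and 8.42 to 11.5 TPM in kEpiSC. The following set libraries apart: a smaller difference between gene length and effective length in ESC replicates 1 to 4 (73.5 bases, against 133 to 192 in the others), a fibroblast marker sum of 578 TPM in ESC replicate 5, ESC replicate 1, in which Eif2s3y was at 0.0 TPM and Xist at 4.72 TPM, against 49.96 to 87.97 TPM and 0.440 to 2.46 TPM in the other ESC libraries, and EpiSC replicate 1, in which Xist was at 0.8 TPM and Eif2s3y at 39.4 TPM, against 328 to 417 TPM and 0.790 to 2.00 TPM in the other EpiSC libraries. kEpiSC libraries were the deepest, at 15.8 and 15.9 M counts.

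Promoter windows of RefSeq (build GRCm38.p6, 250 bases before to 50 after the annotated start) were at hand for 31 of the 36 genes, in 33 windows. The letters CCAAT or their reverse ATTGG stood in 78.8% of these windows, against 37.4% of all 32851 windows, and TTTGAA or TTCAAA, the core of the CHR element, in 75.8%, against 17.9%. Both motifs stood in 66.7% of the members' windows, against 6.95% of all windows. Only these exact letters were searched, so other forms of either element were not counted, and a window without a match may hold one. The windows of 5 genes with values below are printed, as examples with both motifs, with CCAAT alone and with neither, 5′ to 3′ on the strand of the gene, with every match to either motif, on either strand, in capitals; the motifs do not overlap each other there. Hmmr (chr11:40733388-40733687, minus strand) had 5 CCAAT matches and 1 TTTGAA match, Cdc20 (chr4:118437294-118437593, minus strand) 2 and 1, and Bub1 (chr2:127831810-127832109, minus strand) 2 and 0. Nusap1 (chr2:119618048-119618347, plus strand) and Nuf2 (chr1:169531415-169531714, minus strand) held neither motif.
Hmmr: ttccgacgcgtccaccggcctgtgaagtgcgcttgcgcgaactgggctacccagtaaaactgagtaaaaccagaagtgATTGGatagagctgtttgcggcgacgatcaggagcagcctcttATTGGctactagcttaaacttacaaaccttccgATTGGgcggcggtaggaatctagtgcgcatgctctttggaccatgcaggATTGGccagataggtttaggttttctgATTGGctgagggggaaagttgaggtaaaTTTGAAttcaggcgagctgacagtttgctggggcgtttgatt
Cdc20: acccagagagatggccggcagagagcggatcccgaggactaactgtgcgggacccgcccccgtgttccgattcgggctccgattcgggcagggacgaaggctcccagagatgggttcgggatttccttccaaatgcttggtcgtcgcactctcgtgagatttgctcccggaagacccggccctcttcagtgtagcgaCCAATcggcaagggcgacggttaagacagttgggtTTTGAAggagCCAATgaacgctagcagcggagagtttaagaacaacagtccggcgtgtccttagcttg
Bub1: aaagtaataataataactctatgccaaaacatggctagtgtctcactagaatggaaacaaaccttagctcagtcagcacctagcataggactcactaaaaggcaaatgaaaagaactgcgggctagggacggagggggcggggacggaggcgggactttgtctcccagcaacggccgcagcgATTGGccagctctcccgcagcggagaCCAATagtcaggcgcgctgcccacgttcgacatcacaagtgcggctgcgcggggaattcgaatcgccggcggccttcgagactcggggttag
Nusap1: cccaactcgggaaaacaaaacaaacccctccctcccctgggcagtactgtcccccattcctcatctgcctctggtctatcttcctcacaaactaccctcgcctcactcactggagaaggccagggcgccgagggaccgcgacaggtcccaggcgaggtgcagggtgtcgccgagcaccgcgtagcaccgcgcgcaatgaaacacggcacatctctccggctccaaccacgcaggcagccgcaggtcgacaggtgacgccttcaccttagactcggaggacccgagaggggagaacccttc
Nuf2: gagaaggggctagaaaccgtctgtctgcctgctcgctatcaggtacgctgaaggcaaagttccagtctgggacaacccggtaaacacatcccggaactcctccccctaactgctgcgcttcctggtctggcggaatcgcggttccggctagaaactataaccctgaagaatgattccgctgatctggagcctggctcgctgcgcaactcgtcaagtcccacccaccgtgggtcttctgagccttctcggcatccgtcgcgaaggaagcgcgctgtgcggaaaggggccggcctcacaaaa

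By median TPM over all libraries the most abundant members were Ube2c (402 TPM), the ubiquitin-conjugating enzyme of the anaphase-promoting complex, Top2a (370 TPM), which untangles sister DNA, Cdk1 (367 TPM) and Ccnb1 (299.7 TPM), its cyclin partner. The least abundant were Cenpe (35.1 TPM), a kinetochore motor, and Kif4 (42.1 TPM), a chromokinesin on the X chromosome. No member was near 0 anywhere: the ratio of its highest to its lowest library ran from 1.66 (Ttk and Cenpa) to 4.40 (Ect2). Summed over the 36 genes, the level was highest in kEpiSC, at 6851 and 7020 TPM, and lowest in WT cells on day 3 of iCD1, at 3757 and 4305 TPM. kEpiSC had the highest group mean for 18 members, and day 3 iCD1 groups had the lowest for 20: WT for 9, PNT for 7 and JunKO for 4. These counts were not made over all genes, so they cannot be called particular to the members.

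**Figure D1:**
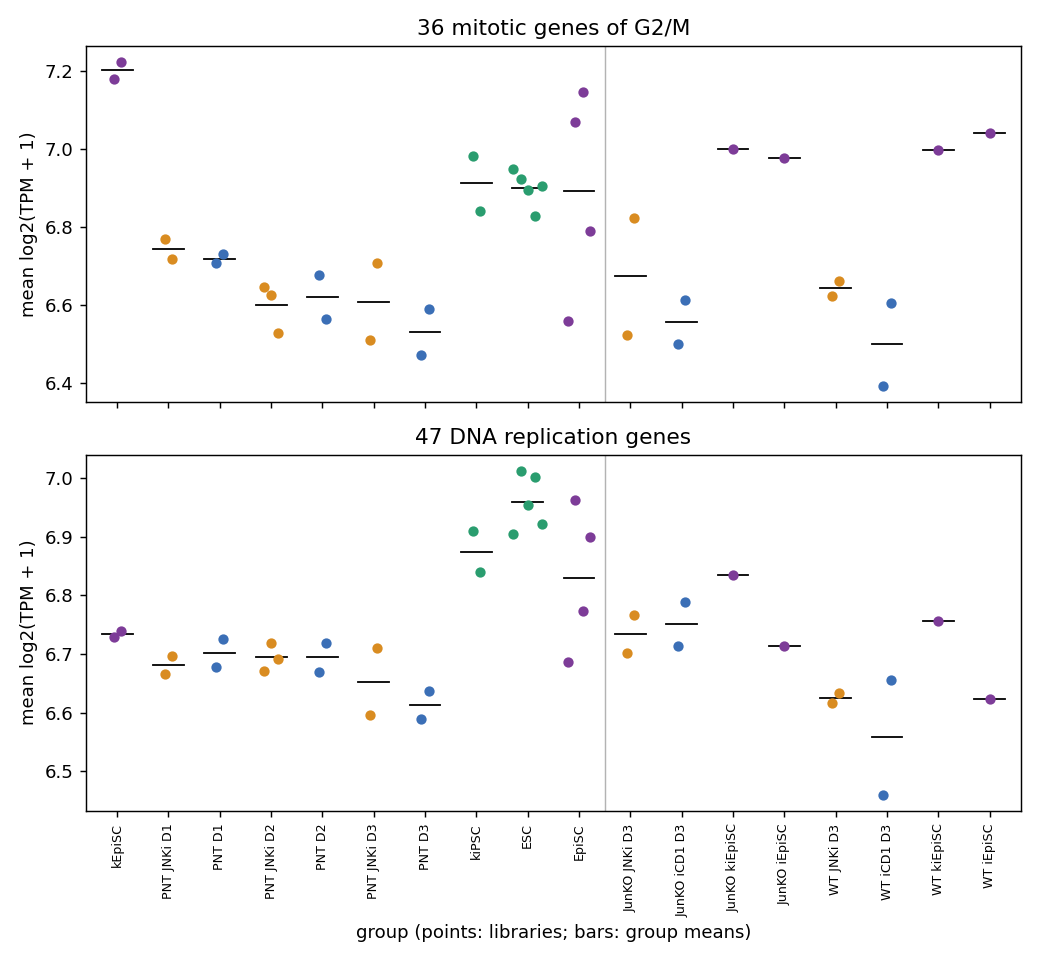
Mean log2(TPM + 1) over the 36 mitotic genes (top) and over 47 DNA replication genes (bottom) in each of 38 libraries, by group; points are libraries, bars group means, and the vertical line parts the series with WT and JunKO cells. The mitotic mean was 7.18 and 7.22 in kEpiSC and stayed at 6.47 to 6.77 in all 13 PNT libraries, while primed WT and JunKO libraries stood at 6.98 to 7.04 and day 3 libraries at 6.39 to 6.82.

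The first day in iCD1 was compared with the kEpiSC it started from. Of the 36 genes 29 fell and none rose, where 46.3% of all 14892 genes tested were called and 23.1% were lower. The median log2 fold change of the members was -0.63, against 0.00 over all genes. Fold changes are of scaled counts, and here they were more negative than the TPM of members printed beside them. All 5 spindle assembly genes, all 4 checkpoint genes, both cytokinesis genes and 6 of 7 mitotic entry genes fell, but only 2 of 5 kinesins and 4 of 6 centromere and kinetochore genes. In bulk RNA, fewer cells in G2 and M and less of each RNA per cell cannot be told apart.

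Nusap1, which bundles spindle microtubules around chromosomes, changed most: it was at 42.4 and 46.2 TPM on day 1, against 111 and 121 TPM in kEpiSC. Its log2 fold change was -1.52 (SE 0.16, adjusted p = 2.2e-06, edgeR quasi-likelihood test), and the groups stood far apart. Hmmr, a spindle-pole protein that works with Tpx2, had 44.6 and 44.5 TPM on day 1 and 95.4 and 104 TPM in kEpiSC (log2 fold change -1.39, SE 0.14, adjusted p = 8.4e-07). Bub1, a checkpoint kinase at kinetochores, had 79.7 and 103 TPM on day 1 and 183 and 189 TPM in kEpiSC (-1.30, SE 0.12, adjusted p = 7.0e-07). None of these ranges overlapped. Aurkb, the catalytic subunit of the passenger complex, had 123 and 127 TPM on day 1, against 223 and 256 TPM in kEpiSC (log2 fold change -1.22, SE 0.15, adjusted p = 8.1e-06). Prc1, which crosslinks microtubules of the midzone, had 79.5 and 81.3 TPM on day 1, against 151 and 165 TPM in kEpiSC (-1.08, SE 0.16, adjusted p = 5.7e-05). Ect2, the exchange factor that activates RhoA for the contractile ring, had 46.8 and 47.8 TPM on day 1, against 91.9 and 93.0 TPM in kEpiSC (-1.06, SE 0.13, adjusted p = 1.1e-05). The ranges of Aurkb, Prc1 and Ect2 did not overlap either.

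The other 23 genes that fell had log2 fold changes between -0.33 (Ttk, the Mps1 checkpoint kinase) and -0.92 (Anln, anillin of the contractile ring). They included Cdk1 at 366 and 368 TPM on day 1 against 585 and 600 TPM in kEpiSC, and Top2a at 362 and 355 TPM against 573 and 633 TPM. The other 7 genes did not pass the test: Nek2, Birc5, Cenpe, Nuf2, Kif20a, Kif2c and Kif4, with log2 fold changes from -0.34 (Cenpe) to 0.18 (Kif20a). Birc5 (survivin) had 254 and 265 TPM on day 1 and 257 and 272 TPM in kEpiSC, although its partners Aurkb and Cdca8 in the passenger complex fell. Among the 31 genes with a promoter window, the median day 1 change was -0.64 for the 24 with CCAAT and -0.37 for the 7 without it, and -0.64 for the 23 with TTTGAA and -0.36 for the 8 without it. Nusap1 is one of 4 members with neither motif, beside Nuf2, Birc5 and Mad2l1.

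Libraries of PNT differ from kEpiSC in other ways that were measured. The sum of 10 fibroblast markers was 113 to 157 TPM in the 6 libraries without JNKi and 23.4 to 26.5 TPM in kEpiSC, with Fbln2 at 33.2 to 64.0 TPM, Pdgfrb at 22.9 to 34.9 TPM and no marker at 0 in every library. The markers did not move as one: of 9 tested, 4 rose and 1 fell on day 1 (Postn, log2 fold change -3.50, adjusted p = 0.0035, edgeR), and 4 rose and none fell on day 3, when 3 changes were negative. The pluripotency gene Pou5f1 (Oct4) fell by 1.53 on the log2 scale on day 1 (adjusted p = 8.5e-05, edgeR) and Nanog by 3.44 (adjusted p = 8.4e-05, edgeR), while Sox2 rose by 0.87 (adjusted p = 0.014, edgeR) and Sall4, the last of these 4 genes, did not pass the test. Group means of Pou5f1 were 2010 TPM in kEpiSC, 757 TPM on day 1, 171 TPM on day 2 and 39.5 TPM on day 3. The 6 PNT libraries without JNKi held 4.624 to 8.456 M counts, fewer than kEpiSC. The part of these differences in the fall was not tested.

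On day 2 against day 1 edgeR called no member, where 16.5% of all genes were called. At an unadjusted p under 0.05 there were 4, DESeq2 called 3, and edgeR called 1 without PNT day 1 replicate 2. On day 3 against day 2 the median was -0.22 (0.01 over all genes). Of the 36 changes 34 were negative, where 51.1% of those over all genes were positive. Only 4 genes fell, where 12.2% of all genes were called and 6.1% were lower. Cdc20, the activator of the anaphase-promoting complex, had 198 and 172 TPM on day 3 and 254 and 240 TPM on day 2 (log2 fold change -0.59, SE 0.13, adjusted p = 0.0085). Nek2, a kinase that separates centrosomes, had 46.6 and 42.9 TPM on day 3 and 56.9 and 57.0 TPM on day 2 (-0.50, SE 0.12, adjusted p = 0.016). Cenpa, the centromeric histone H3, fell by 0.41 (SE 0.10, adjusted p = 0.017) and Ube2c by 0.33 (SE 0.10, adjusted p = 0.043) on the log2 scale. With 1 of the 4 libraries left out there were 0 to 2 called members (0 without PNT day 2 replicate 1, 1 without day 3 replicate 2, 2 without day 2 replicate 2 or without day 3 replicate 1), and the fit of all 38 libraries called 1. Ube2c was called in none of these.

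**Figure D2:**
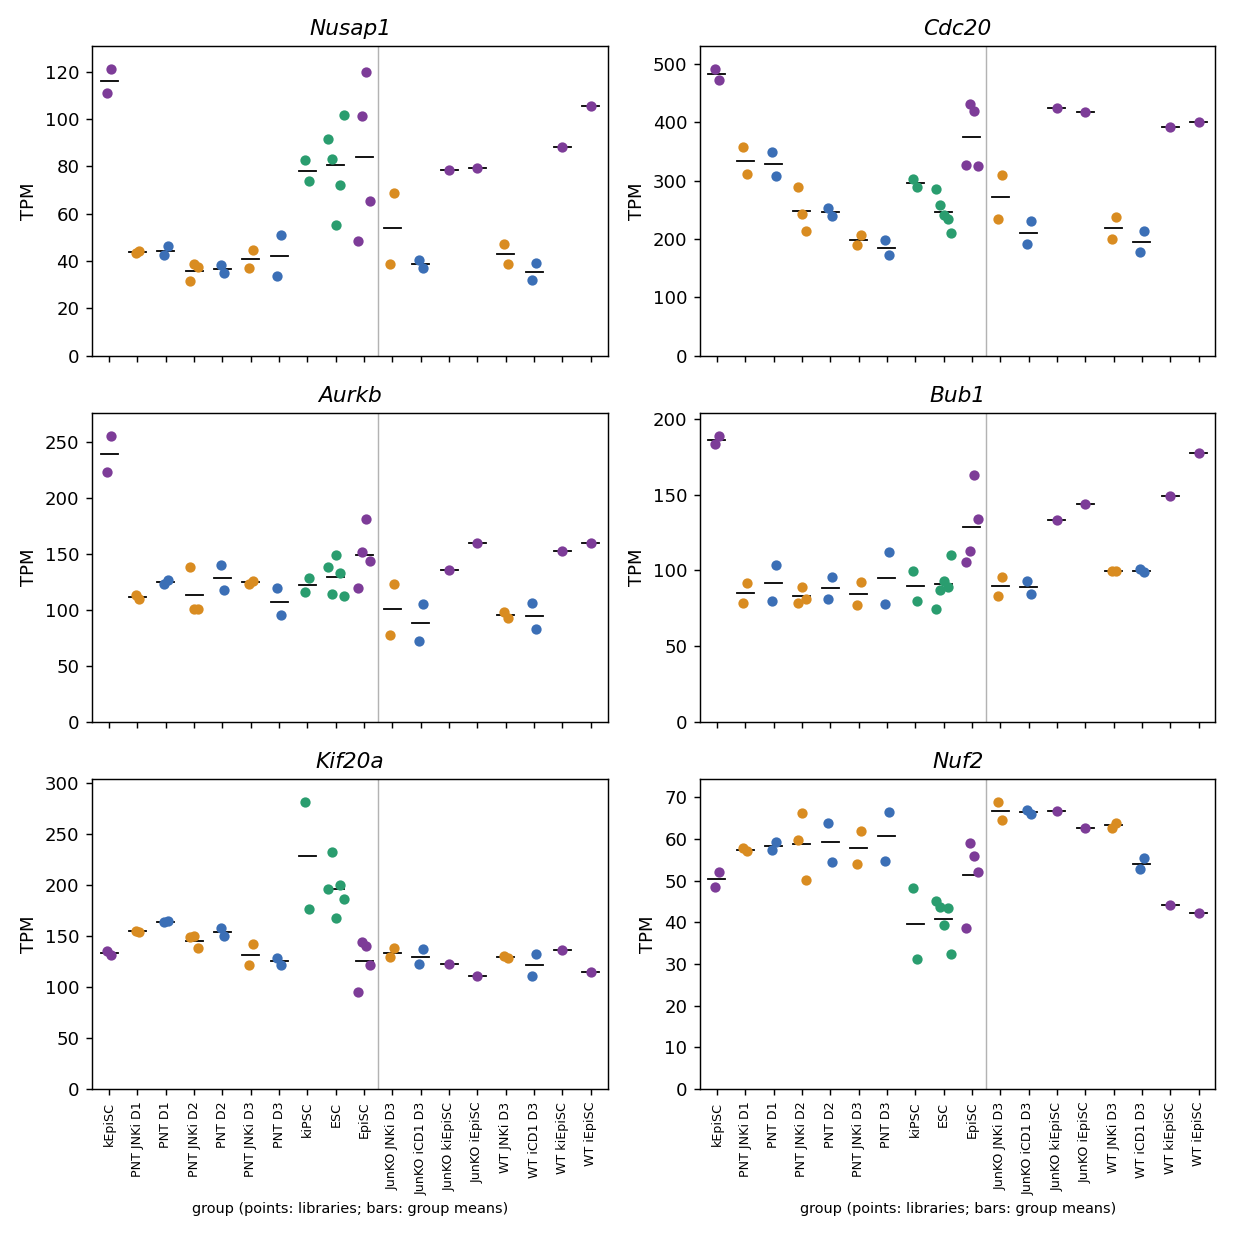
TPM of 6 members in each library, by group; points are libraries, bars group means, every axis starts at 0 and the vertical line parts the series with WT and JunKO cells. Nusap1, Aurkb and Bub1 drop by day 1 and stay low, Cdc20 goes on to 172 and 198 TPM on day 3, Kif20a is highest in kiPSC (177 and 281 TPM), and Nuf2 stands above its kEpiSC values of 48.6 and 52.1 TPM in every PNT library without JNKi.

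Day 3 was also set against kEpiSC, a comparison added after the data had been seen. Of the 36 genes 32 fell and none rose, where 50.6% of all genes were called and 25.4% were lower, and the median was -0.94 (0.00 over all genes). Nusap1 was at 33.6 and 50.8 TPM on day 3 (log2 fold change against kEpiSC -1.70, SE 0.17, adjusted p = 6.5e-07). Cdc20 stood at 198 and 172 TPM on day 3, against 492 and 473 TPM in kEpiSC (-1.64, SE 0.13, adjusted p = 7.4e-08). Aurkb was at 120 and 95.6 TPM on day 3 (-1.62, SE 0.15, adjusted p = 4.1e-07). Bub1 (-1.37), Hmmr (-1.32) and Cenpf, a large kinetochore protein (-1.26), followed. Nek2 passed the test on day 3 but not on day 1. It was at 62.4 and 68.8 TPM in kEpiSC, 79.7 and 69.0 TPM on day 1, 56.9 and 57.0 TPM on day 2 and 46.6 and 42.9 TPM on day 3. Its change against kEpiSC was 0.04 on day 1 (SE 0.12, adjusted p = 0.83) and -0.81 on day 3 (SE 0.12, adjusted p = 5.2e-05).

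The 4 genes that did not pass the test on day 3 were Cenpe, Nuf2, Kif20a and Kif4. Nuf2 binds Ndc80 and Spc25 in the complex that holds microtubules at the kinetochore. It had 54.8 and 66.4 TPM on day 3, against 48.6 and 52.1 TPM in kEpiSC. Although its TPM were higher on day 3, its log2 fold change on scaled counts was 0.02, with a 95% interval from -0.36 to 0.40. Its partner Ndc80 fell by 0.71 and Spc25 by 0.54 on the log2 scale. Kif4 and the midzone kinesin Kif20a had counts that were not whole in all 38 libraries, so part of their reads was shared with other loci by RSEM; the same held in at least 30 libraries for Ccna2, Nek2, Cenpf, Nusap1 and Hmmr, while 18 members had whole counts throughout.

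The same passage was sampled in separate cells: JunKO and WT EpiSC-like cells on day 3 of iCD1, each against primed cells of its genotype. These libraries lie close in depth, from 2.857 to 3.537 M counts. In JunKO cells 22 of the 36 genes fell and none rose (median -0.58, against 0.02 over all genes), where 29.1% of 12613 genes were called and 13.3% were lower. In WT cells 25 fell and none rose (median -0.68, against 0.00), where 32.1% were called and 16.1% were lower. The fibroblast marker sum moved here too, at 127 to 149 TPM on day 3 and 13.3 to 17.8 TPM in primed cells for JunKO, and at 139.5 to 145.8 TPM on day 3 and 17.2 to 22.1 TPM in primed cells for WT. Of 6 markers tested, 5 rose and none fell in either genotype. Markers at 0 were Lox, Postn and Lum in primed and Dcn and Lox in day 3 JunKO libraries, and Lum in primed and Dcn and Lum in day 3 WT libraries. Pou5f1 fell by 2.91 in JunKO cells (adjusted p = 0.0017, edgeR) and by 5.31 in WT cells (adjusted p = 1.0e-04, edgeR) on the log2 scale. Nanog and Sall4 fell in both genotypes, while Sox2 rose by 1.47 in JunKO cells (adjusted p = 4.6e-05, edgeR) and did not pass the test in WT cells. The part of either in the fall was not tested.

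Nusap1 again led. In JunKO cells it had 40.3 and 36.8 TPM on day 3, against 79.2 TPM in iEpiSC and 78.2 TPM in kiEpiSC (log2 fold change -1.05, SE 0.22, adjusted p = 0.0055). In WT cells it had 31.8 and 39.2 TPM on day 3, against 105 TPM in iEpiSC and 88.0 TPM in kiEpiSC (-1.50, SE 0.22, adjusted p = 6.3e-04). Cdc20 came next in both genotypes. It was at 191 and 231 TPM on day 3 in JunKO cells, against 418 and 425 TPM in primed cells (-1.02, SE 0.16, adjusted p = 0.0010). In WT cells it was at 178 and 213 TPM on day 3, against 401 and 391.9 TPM in primed cells (-1.18, SE 0.16, adjusted p = 3.9e-04). Mad2l1, the checkpoint protein that sequesters Cdc20, had 135 and 139 TPM on day 3 in WT cells, against 297 and 262 TPM in primed cells (-1.10, SE 0.13, adjusted p = 1.8e-04). The ranges of these genes did not overlap between day 3 and primed cells. Aurka, the spindle-pole kinase, Plk1, the polo kinase of mitotic entry, Top2a and Aurkb were the others among the 6 largest in JunKO cells, with log2 fold changes of -0.92, -0.86, -0.81 and -0.80. Aurkb, Top2a and Plk1 were the others in WT cells, at -0.98, -0.97 and -0.96. Whether the fall differed between JunKO and WT cells was not tested.

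With 2 libraries a side these counts hang on single libraries. Left out one at a time, they gave 1 (without JunKO kiEpiSC), 4 (without JunKO iEpiSC), 12 (without JunKO day 3 replicate 1) or 20 calls in JunKO cells, with medians between -0.62 and -0.46. Cdc20 was called each time, while Nusap1, Aurka, Plk1 and Aurkb were not called without JunKO iEpiSC or without JunKO kiEpiSC, Top2a was not called without JunKO kiEpiSC, and Aurkb was not called without JunKO day 3 replicate 1. In WT cells they gave 11 (without WT iEpiSC), 13 (without WT kiEpiSC), 15 (without WT day 3 replicate 1) or 25 calls, with medians between -0.78 and -0.53. Nusap1, Cdc20, Mad2l1 and Top2a were called each time, while Aurkb was not called without WT iEpiSC or without WT kiEpiSC, and Plk1 was not called without WT kiEpiSC.

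The 3 sets of fallen genes on day 3, from PNT, JunKO and WT cells, share no library. All 22 genes that fell in JunKO cells were among the 32 that fell in PNT (100% and 68.75%), and all 25 of WT cells were among them too (100% and 78.1%). JunKO and WT cells shared 21 genes (95.45% of the JunKO genes and 84.0% of the WT genes). With 32 of the 36 genes lower in PNT (88.89%), most of any choice of members would be among them. These 21 fell in all 3 sets (58.33% of the members), as did 9.05% of the 12559 genes tested in all 3. They were Cdk1, Ccnb1, Ccna2, Plk1, Aurka, Aurkb, Cdca8, Bub1, Mad2l1, Cdc20, Ube2c, Cenpf, Kif11, Tpx2, Nusap1, Dlgap5, Prc1, Anln, Ect2, Top2a and Mki67. The same 4 genes, Cenpe, Nuf2, Kif20a and Kif4, were called in none of the 3. Across the 36 genes, which are not independent, the log2 fold changes of PNT correlated with those of JunKO cells at r = 0.87 and of WT cells at r = 0.84, and those of JunKO and WT cells at r = 0.88. All 3 sets are of the same change of medium.

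**Figure D3:**
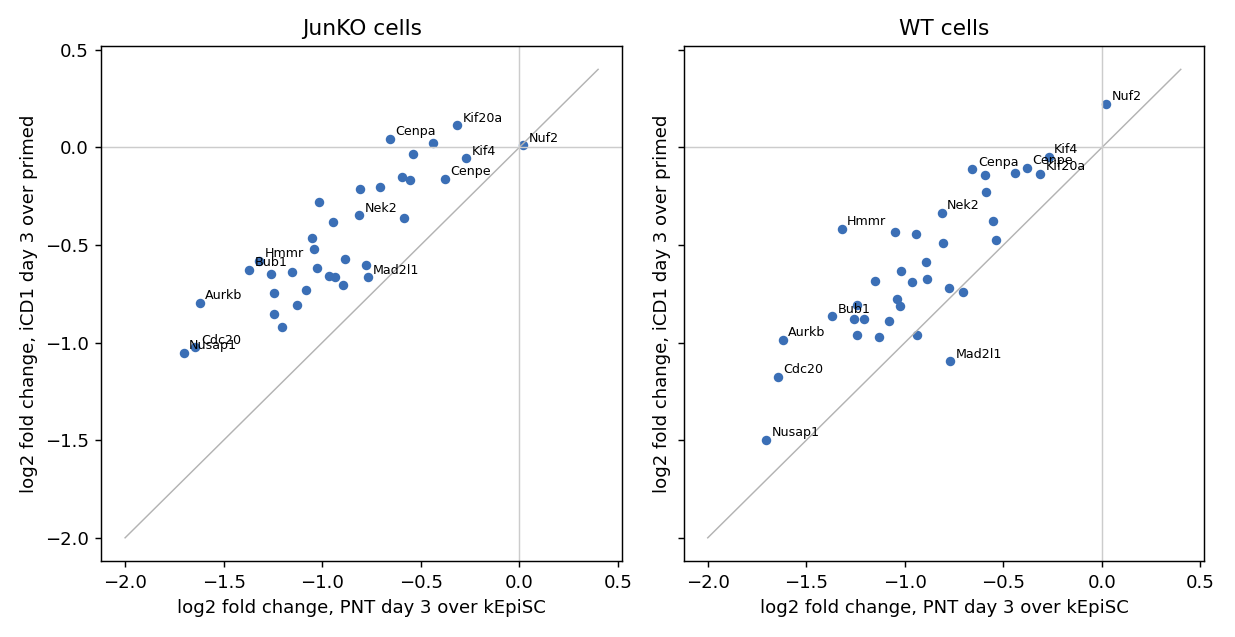
Log2 fold change of each of the 36 genes on day 3 of iCD1 in JunKO (left) and WT (right) cells over their primed cells, against the log2 fold change of PNT day 3 over kEpiSC; the diagonal marks equal changes. Nusap1 lies lowest in both panels (-1.05 in JunKO and -1.50 in WT cells), Nuf2 lies at 0.01 in JunKO and 0.22 in WT cells, and most points sit above the diagonal.

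kiPSC, the naive cells at the end, were set against PNT day 3. Here 24 genes rose and 1 fell (median 0.47, against 0.00 over all genes), where 57.9% of all genes were called, 29.3% higher and 28.6% lower. Both cytokinesis genes led. Anln was at 108 and 98.8 TPM in kiPSC, against 45.8 and 52.8 TPM on day 3 (log2 fold change 1.19, SE 0.13, adjusted p = 1.1e-06). Ect2 was at 105 and 86.2 TPM in kiPSC, against 38.9 and 46.9 TPM on day 3 (1.16, SE 0.14, adjusted p = 2.7e-06). Nusap1 followed, at 82.5 and 73.9 TPM in kiPSC, against 33.6 and 50.8 TPM on day 3 (1.01, SE 0.17, adjusted p = 8.1e-05). The ranges of these genes were apart, and Kif20a (0.99), Hmmr (0.94) and Aurka (0.94) were the next largest. Nuf2 was the gene that fell, with 48.3 and 31.1 TPM in kiPSC, against 54.8 and 66.4 TPM on day 3 (-0.47, SE 0.19, adjusted p = 0.040). Without kiPSC replicate 2 its adjusted p was 0.38 and without PNT day 3 replicate 2 it was 0.20. The fibroblast marker sum was 60.5 to 151 TPM in kiPSC, and its part in these differences was not tested.

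Against kEpiSC, kiPSC stayed lower for 24 genes and higher for 1 (median -0.38, against -0.03 over all genes), where 57.5% of all genes were called, 29.2% lower and 28.2% higher. Bub1 differed most, with 99.5 and 80.1 TPM in kiPSC, against 183 and 189 TPM in kEpiSC (log2 fold change -1.27, SE 0.12, adjusted p = 4.3e-07). Aurkb had 116 and 129 TPM in kiPSC, against 223 and 256 TPM in kEpiSC (-1.08, SE 0.15, adjusted p = 1.3e-05). Mki67, the Ki-67 coat protein of mitotic chromosomes, had 71.0 and 58.9 TPM in kiPSC, against 117 and 118 TPM in kEpiSC (-0.97, SE 0.14, adjusted p = 2.1e-05). Plk1 (-0.88), Cdc20 (-0.82) and Mad2l1 (-0.75) came next. Kif20a was higher, at 281 and 177 TPM in kiPSC, against 135 and 131 TPM in kEpiSC (0.68, SE 0.16, adjusted p = 0.0016), and without kiPSC replicate 1 its change was 0.26 (adjusted p = 0.058). In sequence, 29 genes had fallen by day 1 and 21 of these were higher in kiPSC than on day 3. Of the 21, 14 were still lower in kiPSC than in kEpiSC and 7 passed no test between them. This sequence was not counted over all genes, so it cannot be called particular to the members. The last 2 comparisons share the kiPSC libraries, and each also shares libraries with the comparisons of PNT above.

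In the stable cell types, ESC were compared with EpiSC, the naive against the primed state. The groups also differed in Xist, at 0.440 to 4.72 TPM in ESC and 328 to 417 TPM in EpiSC replicates 2 to 4. Eif2s3y was at 49.96 to 87.97 TPM in ESC replicates 2 to 5 and 0.790 to 2.00 TPM in those EpiSC libraries. The state and other differences between the lines therefore cannot be told apart. Only 10 members were called, 5 higher and 5 lower (median -0.04, against 0.02 over all genes), where 50.9% of all 13923 genes were called, 27.1% higher and 23.8% lower. Anln was higher, with 94.6, 108, 99.3, 95.8 and 117 TPM in ESC, against 37.6, 66.6, 75.0 and 59.5 TPM in EpiSC (log2 fold change 0.75, SE 0.14, adjusted p = 8.6e-04). Kif20a was higher as well, with 196, 232, 168, 200 and 187 TPM in ESC, against 95.3, 145, 140 and 121 TPM in EpiSC (0.62, SE 0.15, adjusted p = 0.0033). These ranges did not overlap. Ect2, Kif2c and Ube2c were the other 3 higher genes. Cdc20 was lower, with 287, 259, 241, 234 and 211 TPM in ESC, against 326, 431, 419 and 325 TPM in EpiSC (-0.59, SE 0.12, adjusted p = 0.0011). Cdca8, borealin of the passenger complex, was lower by 0.57 and Bub1 by 0.55 on the log2 scale, as was Mad2l1. Mki67 was at 55.5, 50.5, 48.7, 49.2 and 93.4 TPM in ESC, against 55.3, 103, 113 and 80.5 TPM in EpiSC (-0.61, SE 0.21, adjusted p = 0.028), and it was not called without any 1 of ESC replicates 1, 2, 3 and 4 or EpiSC replicates 2 and 3 (adjusted p 0.058 to 0.093). Without ESC replicate 1 there were 8 called members and without EpiSC replicate 1 there were 10. With ESC replicate 5 as the only ESC library its change was 0.06 and 6 members were called (3 higher, 3 lower), and the part of the effective length of replicates 1 to 4 or the fibroblast signal of replicate 5 was not tested.

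kEpiSC, with the Klf4 transgene, were compared with EpiSC. The groups also differed in Xist, at 0.10 and 0.57 TPM in kEpiSC and 328 to 417 TPM in EpiSC replicates 2 to 4, and in Eif2s3y, at 66.05 and 67.57 TPM in kEpiSC and 0.790 to 2.00 TPM in those 3 EpiSC libraries, so the transgene and other differences between the lines cannot be told apart. All 36 log2 fold changes were positive, where 48.28% of those over all genes were (median 0.38, against -0.01 over all genes). Only 1 gene, Aurkb, passed the test, where 1.26% of all genes were called and 0.941% were higher. Aurkb had 223 and 256 TPM in kEpiSC, against 120, 152, 181 and 144 TPM in EpiSC (log2 fold change 0.75, SE 0.17, adjusted p = 0.048), and the ranges did not overlap. Unadjusted, 14 members had p under 0.05, and the count was 0 with RLE scaling, 4 in DESeq2 and 10 when all 38 libraries were fitted together. Aurkb was not called when EpiSC replicate 2, EpiSC replicate 4, kEpiSC replicate 1 or kEpiSC replicate 2 was left out. The EpiSC libraries themselves ranged from 4589 TPM (replicate 1) to 6497 TPM in the summed level, and they are also the shallowest, at 2.165 to 2.869 M counts. kiPSC and ESC were compared as the derived and the embryo-derived naive cells, and edgeR called no member, where 0.144% of all genes were called. No member had an unadjusted p under 0.05 and DESeq2 called none. For 27 of 36 genes the 95% interval of the difference lay within 1.5-fold.

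**Figure D4:**
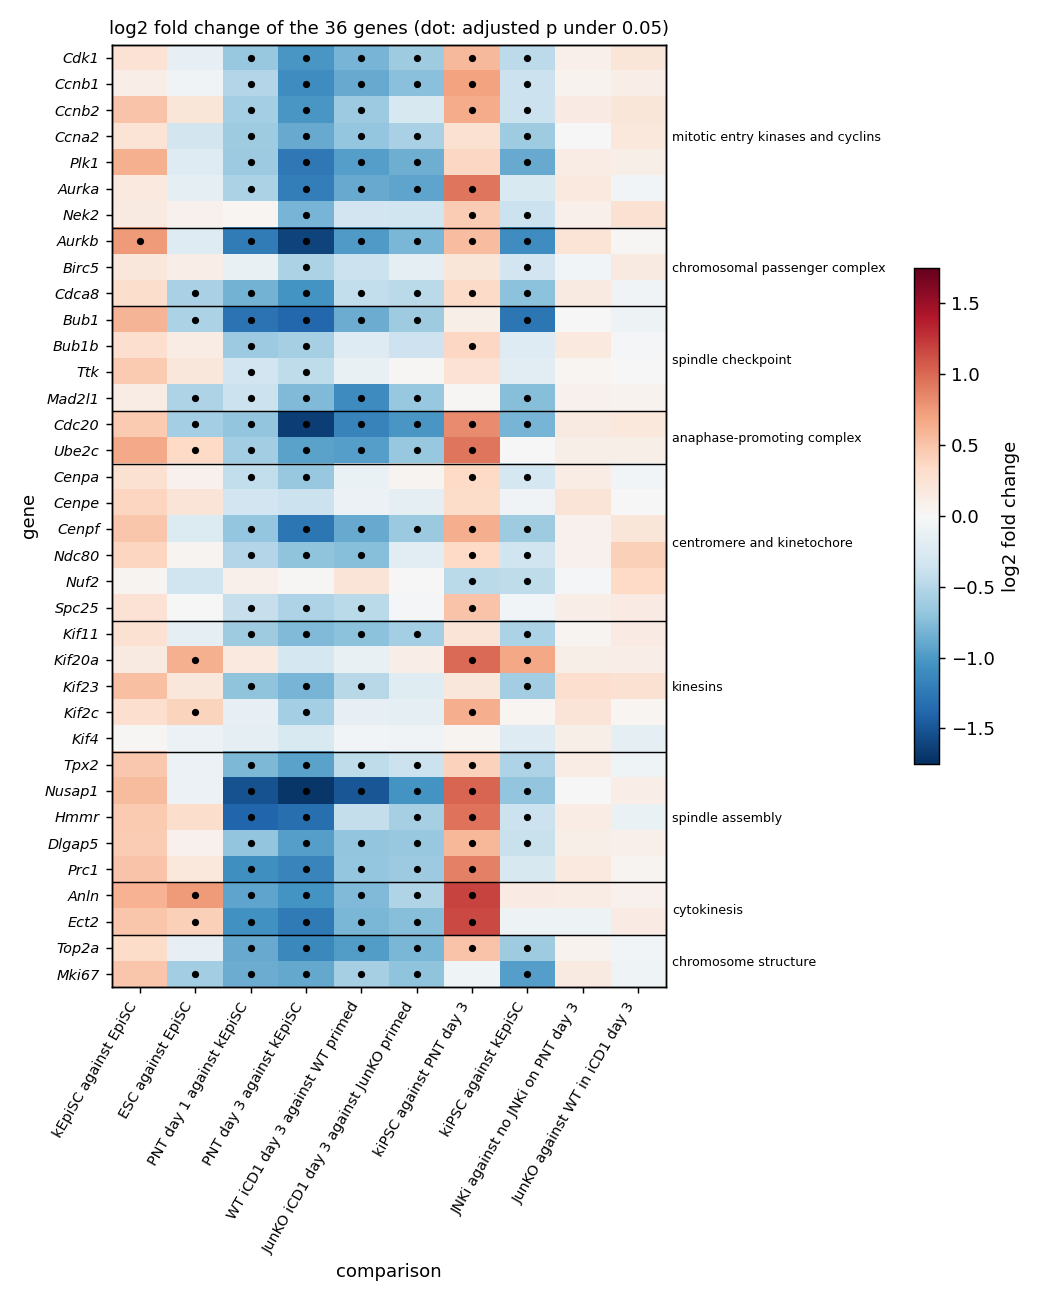
Log2 fold change of each of the 36 genes, in rows by role, in 10 comparisons, in columns; blue is lower and red higher in the group named first, and a dot marks an adjusted p under 0.05. Of the columns, PNT day 3 against kEpiSC has 32 dots, kiPSC against PNT day 3 has 25, ESC against EpiSC has 10, and the last 2 columns, for JNKi and JunKO, have none.

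JNKi was compared with iCD1 alone on each day of PNT, the question being what blocking the kinase upstream of c-Jun does. No member was called by edgeR on day 1, 2 or 3, where 0%, 0.00672% and 0% of all genes were called, and no member had an unadjusted p under 0.05. DESeq2 called none either. The median changes were -0.003 on day 1, -0.02 on day 2 and 0.11 on day 3, and those over all genes lay between -0.002 and 0.005. On day 3, 32 of the 36 were positive, where 50.46% of all genes were, and the 36 genes are not independent. Kif23, the kinesin of the centralspindlin complex, had the largest change. It was at 64.0 and 84.8 TPM with JNKi, against 58.6 and 65.6 TPM without (log2 fold change 0.29, 95% interval -0.03 to 0.62), and the groups overlapped. The 95% interval lay within 1.5-fold for all 36 genes on day 1, all 36 on day 2 and 33 on day 3. The change on day 3 minus that on day 1 was called for no member by edgeR or DESeq2 (edgeR called 0% of all genes and no member had an unadjusted p under 0.05). In kiEpiSC on day 3, JNKi against iCD1 alone gave no member called by edgeR or DESeq2 in JunKO cells (0.0476% of all genes called, 1 member with an unadjusted p under 0.05) or in WT cells (0.484%, 4 members). The difference of these changes, JunKO minus WT, also gave none (0% of all genes, no member with an unadjusted p under 0.05).

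JunKO cells were compared with WT cells in 3 settings. Eif2s3y, a gene of the Y chromosome, was at 45.4 to 90.2 TPM in the 6 JunKO libraries and 6.34 to 28.8 TPM in the 6 WT libraries, so the deletion and other differences between the lines cannot be told apart. In primed cells edgeR called no member (0.357% of all genes called, 3 members with an unadjusted p under 0.05), with a median of -0.02 (-0.01 over all genes). On day 3 of iCD1 it called none (1.70%, 1 member, median 0.10 against 0.01), and on day 3 with JNKi none (0.920%, 1 member, median -0.02 against 0.01). DESeq2 also called none in these 3. Nuf2 had the largest difference in primed cells, with 62.5 TPM in JunKO iEpiSC and 66.7 TPM in JunKO kiEpiSC, against 42.3 and 44.1 TPM in WT (log2 fold change 0.55, SE 0.13, adjusted p = 0.12). It was at 67.1 and 66.1 TPM in JunKO cells on day 3 of iCD1 as well, against 52.7 and 55.4 TPM in WT cells (0.34, SE 0.13, adjusted p = 0.28). Neither pair of ranges overlapped, and neither difference passed the test. The 95% interval lay within 1.5-fold for 29 genes in primed cells, 29 on day 3 of iCD1 and 33 with JNKi. In simulated data for the JunKO comparison in iCD1 the test called 9.1% of genes changed 1.5-fold, 48.5% of those changed 2-fold and 80% of those changed 4-fold (12277 genes). The changed genes were drawn from all genes tested, at any level, so these rates are not those of the members.

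**Figure D5:**
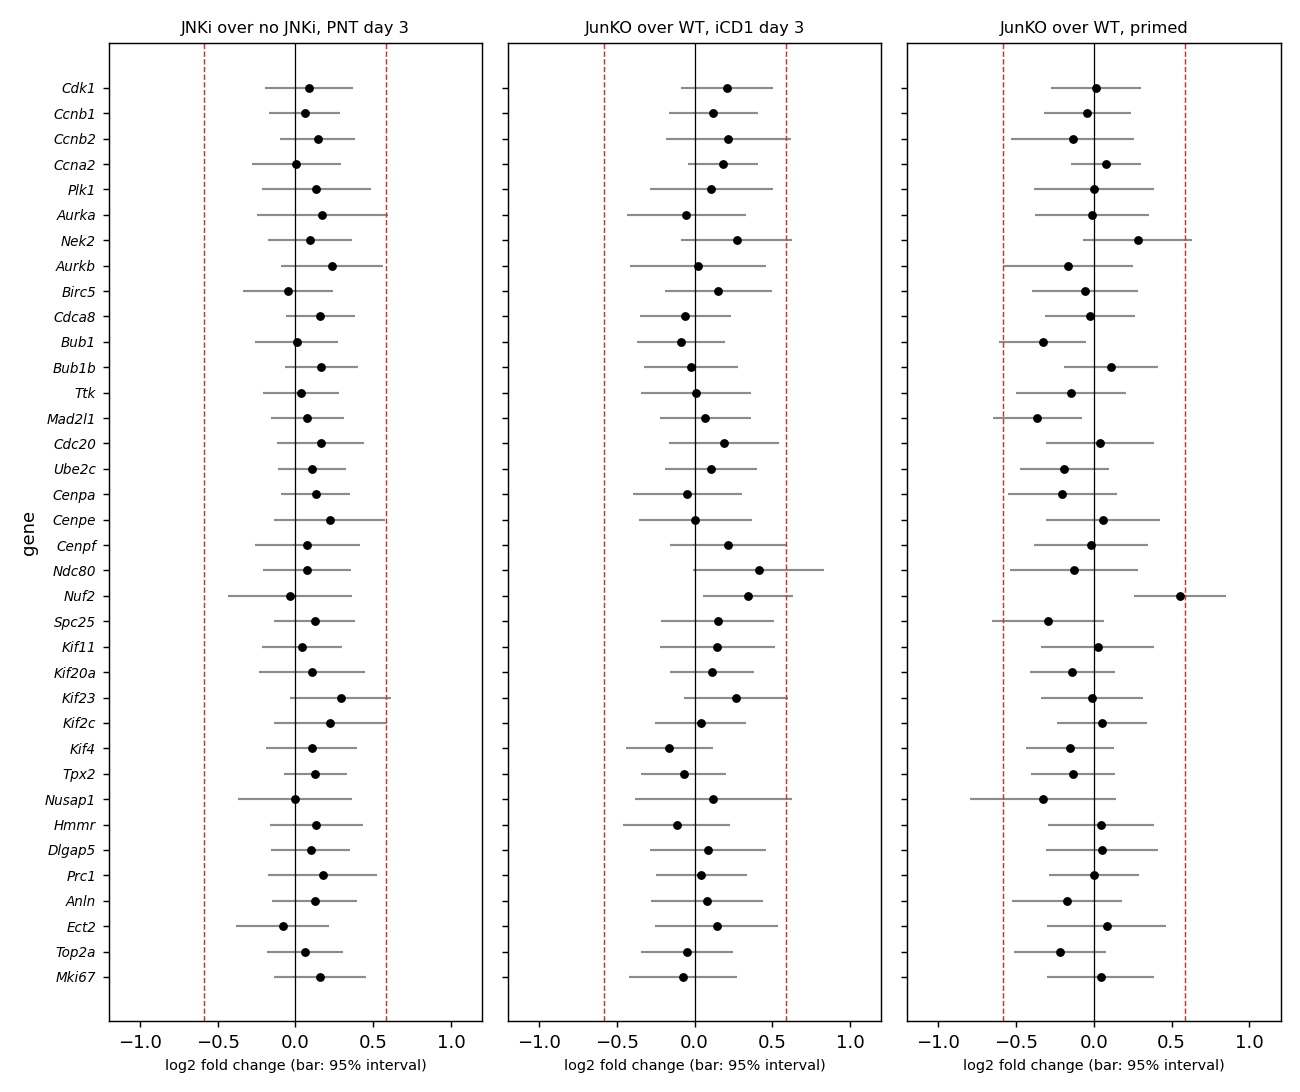
Log2 fold change of the 36 genes with its 95% interval for JNKi over no JNKi on PNT day 3 (left), JunKO over WT on day 3 of iCD1 (middle) and JunKO over WT in primed cells (right); dashed lines mark 1.5-fold. No gene passed the test in any panel, 33, 29 and 29 intervals lie between the dashed lines, and Nuf2 lies farthest to the right in the right panel (0.55).

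Related lists were counted in the same comparisons. Of 78 other mitotic genes 38 fell and 4 rose on PNT day 1 (median -0.40) and 48 fell and 4 rose on day 3 (median -0.54), which is 53.85% called on day 1, where 46.3% of all genes were called, and 66.67% on day 3, where 50.6% were. Cdc25b, the phosphatase that first activates Cdk1, had the largest change on day 1 (-2.30), and Cdkn3, a phosphatase of cyclin-dependent kinases, on day 3 (-2.57). Of 47 DNA replication genes, used in S phase, 15 fell and 5 rose on day 1 (median -0.12) and 23 fell and 2 rose on day 3 (median -0.39), with Pold1, the catalytic subunit of polymerase delta, at -0.99 and -1.23. The share called in either direction, 42.55% on day 1 and 53.19% on day 3, was near that of all genes (46.3% and 50.6%). Most of these calls were falls, and of all genes 23.1% were lower on day 1 and 25.4% on day 3. Their mean log2(TPM + 1) was 6.59 to 6.73 in PNT without JNKi and 6.73 and 6.74 in kEpiSC.

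On day 3 against primed cells, 6 replication genes fell and 1 rose in JunKO cells (median -0.06), and 14 fell and none rose in WT cells (median -0.21). Called in either direction were 14.89% and 29.79% of the list, where 29.1% and 32.1% of all genes were in JunKO and WT cells. In WT cells all 14 calls were falls, and of all genes 13.3% were lower in JunKO and 16.1% in WT cells. In kiPSC against PNT day 3, 27 replication genes rose and 3 fell (63.83% called, where 57.9% of all genes were, with a median of 0.48, near the 0.47 of the mitotic genes), led by Orc1 of the origin recognition complex (1.27) and Mcm5 of the replicative helicase (1.16).

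Among 36 regulators of the cell cycle programmes 6 rose and 9 fell on PNT day 1 (41.67% called, where 46.3% of all genes were). The largest changes were those of Myc (-2.196), Cdk6 (-2.05), Rb1 (-1.575) and Ccne2 (1.292). In kiPSC against PNT day 3 the largest was that of Ccnd2 (-5.857). Mybl2 (B-Myb) was next and higher, with 504 and 348 TPM in kiPSC, against 47.6 and 47.1 TPM on PNT day 3. Its log2 fold change was 3.22 (SE 0.17, adjusted p = 4.4e-10, edgeR). It was at 41.0 and 56.7 TPM on PNT day 1, against 91.5 and 86.3 TPM in kEpiSC (-1.08, SE 0.16, adjusted p = 4.6e-05). In JunKO cells it was higher on day 3 of iCD1, at 83.0 and 119 TPM, against 56.4 and 60.8 TPM in primed cells. In WT cells the ranges overlapped, with 40.45 and 66.2 TPM on day 3 and 74.9 and 59.75 TPM in primed cells. In ESC it ran from 413 to 526 TPM, against 55.2 to 79.6 TPM in EpiSC (2.50, SE 0.14, adjusted p = 4.7e-08). Foxm1, picked after its values were seen, did not pass the test on day 1 (-0.01, 95% interval -0.25 to 0.22) or day 3 (0.10, -0.13 to 0.33) against kEpiSC. Among 12 cell cycle inhibitors 5 rose and 3 fell on day 1 (66.67% called, where 46.3% of all genes were). The largest changes were those of Cdkn1c (3.472), Gadd45b (-2.959), Cdkn2a (-2.162) and Cdkn1a (2.04). On day 3 of iCD1 against primed cells Cdkn2a rose instead, by 2.543 in WT and 1.706 in JunKO cells on the log2 scale. Cdkn1c was also lower in JunKO than in WT cells. Its log2 fold change was -7.545 in primed cells, -9.043 on day 3 of iCD1 and -4.756 with JNKi (adjusted p = 0.0165, 0.004962 and 0.0117, edgeR). Cdkn1a (p21), a target of p53, was at 52.7 and 52.1 TPM in kEpiSC, 267 and 184.5 TPM on day 1, 117 and 133 TPM on day 2 and 335 and 267 TPM on day 3. Its log2 fold change against kEpiSC was 2.04 (SE 0.22) on day 1 and 2.31 (SE 0.22) on day 3, and 362 and 363 TPM were found in kiPSC. In JunKO cells the ranges of Cdkn1a overlapped, with 114 and 200 TPM on day 3 of iCD1 and 198 and 77.2 TPM in primed cells. In WT cells it was at 163 and 240 TPM on day 3, against 112 and 64.8 TPM in primed cells. Of 19 p53 targets tested, 3 rose and 8 fell on day 1 (57.89% called, where 46.3% of all genes were), and 5 rose and none fell on day 3 against day 2 (26.32%, where 12.2% were).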

How the data were processed

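RNA was extracted with TRIzol and sequenced on a NextSeq 500. The authors aligned the reads with Bowtie2 and quantified genes with RSEM on mm10 (versions not given in the sources used here), and deposited 1 table per library with the expected counts of each gene, which need not be whole, and TPM, scaled by gene length and to a fixed sum within the library. Each table held 29267 genes, and rows with a symbol took 99.68% of the counts. Counts within 0.005 of a whole number were taken as whole.

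The expected counts as deposited were rounded and tested with edgeR 4.0.16 in R 4.3.3 (quasi-likelihood F test, TMM scaling, filterByExpr with a minimum count of 10, Benjamini-Hochberg adjustment over all genes tested, calls at an adjusted p under 0.05). There were 3 fits. ESC, EpiSC, kEpiSC and kiPSC (13 libraries) served the comparisons with ESC or EpiSC. kEpiSC, kiPSC and PNT (17 libraries) served those of PNT and kiPSC. WT and JunKO cells (12 libraries) had a term for iEpiSC against kiEpiSC. SEs were derived from each fold change and its F statistic. Levels are TPM, and means over genes used log2(TPM + 1). Fold changes are of TMM-scaled counts, so the size of a change can differ between these scales. For PNT or kiPSC against kEpiSC, the fold changes of members were more negative than the TPM printed beside them, and the cause was not tested. The p values given in the text are all from edgeR unless another tool is named. Library totals of 2.165 to 15.945 M counts set the precision, and intervals cover the spread between libraries only.

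The members, lists and tests were chosen with earlier results of these data known, and PNT day 3 against kEpiSC was added after the data had been seen. Full statistics are given for up to 6 called members with the largest absolute change per comparison and for members against the majority, and up to 4 genes of each other list were named. Foxm1 and the members whose values are given without a call were chosen with their values known. Mybl2 on PNT day 1 was not among the 4 largest changes of its list. The levels of Mybl2 and Cdkn1a in WT and JunKO cells were also chosen with their values known.

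Alternatives were RLE scaling, DESeq2 1.42.0, no filter, all 38 libraries in 1 fit, the replicate number as a block, each library left out, and ESC replicate 5 alone. The fits were tested on simulated data with 200 changed genes. Promoter motifs were searched with Python 3.11.15 on both strands.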

Additional observations from a re-analysis of the deposited data

Results flagged for a closer look

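In 3 of the 74 sets of 4 or 5 libraries of ESC or EpiSC examined, 1 library stood apart from the others by Dixon's ratio, and chance gives about 1 in 20. Kif23, the centralspindlin kinesin, was at 115.2 TPM in ESC replicate 3 and at 64.41 to 75.73 TPM in the other 4 ESC libraries. Mki67 was at 93.39 TPM in ESC replicate 5 and at 48.7 to 55.51 TPM in the other 4. Spc25, a subunit of the Ndc80 complex, was at 64.45 TPM in EpiSC replicate 1 and at 95.8 to 100.2 TPM in the other 3 EpiSC libraries.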

How the results depend on the processing

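Of 107 counts of called members refitted under settings other than leaving out a library, 97 stayed within 1.5 times and 10 did not. Among the 97 are counts that were 0 and stayed at 0, so they do not measure how stable the counts above 0 are. With ESC replicate 5 as the only ESC library, ESC against EpiSC gave 6 called members, and Mki67 changed sign to 0.06 (0.06375, adjusted p = 0.88, edgeR). kEpiSC against EpiSC gave 0 with RLE scaling, 3 with the replicate block, 4 in DESeq2 and 10 with all 38 libraries. PNT day 2 against day 1 gave 2 with no filter, 1 with the replicate block and 3 in DESeq2, and PNT day 3 against day 2 gave 1 with all 38 libraries. JunKO against WT with JNKi gave 1 with no filter. The cause was not tested. Leaving out 1 library at a time gave 7 to 11 calls for ESC against EpiSC, 0 to 1 for kEpiSC against EpiSC, 24 to 27 for PNT day 1 and 32 for PNT day 3 against kEpiSC, 0 to 1 for PNT day 2 against day 1 and 0 to 2 for day 3 against day 2. It gave 19 to 27 for kiPSC against PNT day 3, 17 to 25 for kiPSC against kEpiSC, 1 to 20 for JunKO and 11 to 25 for WT on day 3 against primed cells, and 0 to 1 for JunKO against WT with JNKi (1 without JunKO JNKi replicate 1). Where this left 1 library in a group, it was assumed to vary like the other groups. Of 49 named changes, 17 lost their call in at least 1 setting. Libraries that share only a replicate number were not taken as pairs. Correlations of their deviations ran from -0.0547 to 0.106, -0.0663 to 0.249 and -0.017 to 0.322 in the 3 fits. The largest of these were positive, and whether such libraries share something was not tested. The replicate block moved no other count by over 1.5 times. With 2 libraries in most groups, changes of 1.5-fold in the simulated data, over genes of any level, were often below what the test could call.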
